A study of Mus musculus with 29 samples.

Results

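The G2 and mitosis genes described here are 51 named genes whose products drive or carry out the end of the cell cycle, from entry into mitosis to the separation of the daughter cells. They were chosen by name. The rule uses no measured value, but the list was drawn up with earlier results of these data known. All 51 were found by Ensembl identifier among the 38355 genes listed for the untreated libraries and the 48709 listed for the treated libraries. They lie on 18 chromosomes. All 51 also passed the filter on low counts in both experiments, and the lowest count of any of them in any library was 22 reads.

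RNA was sequenced from the cortex of C57BL/6J mouse embryos at E17.5, an embryonic stage when the stem cells of the ventricular zone still produce late-born neurons. The study deleted BAF155 and BAF170, core subunits of the chromatin-remodeling BAF (mSWI/SNF) complex encoded by Smarcc1 and Smarcc2, with an hGFAP-Cre transgene, which is active in cortical radial glia from mid-neurogenesis and earlier in the medial than in the dorsal and lateral pallium. A tissue sample therefore also holds cells that never expressed Cre. The untreated experiment has 4 libraries with the title letter C, the controls of the study, and 3 with the letter M, the double knockouts (dcKO). The genotype field reads BAF dcKO_hGFAP-Cre for all 7 of them, so these groups rest on the letters. The treated experiment has 4 wild-type libraries given vehicle (WT vehicle), 4 dcKO libraries given vehicle (dcKO vehicle) and 4 dcKO libraries given a Wnt inhibitor (dcKO Wnt inhibitor). The inhibitor of the study was ICG-001, injected daily into the pregnant mothers, so the embryos were exposed through the dam. No wild-type embryos given the inhibitor are among the libraries. Chromatin was also immunoprecipitated for H3K27me3, the histone mark of Polycomb repression, in 4 control libraries (letter C) and 4 dcKO libraries (letter K).

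In a dividing cell, cyclin-dependent kinase bound to B-type cyclins triggers mitosis, condensins and topoisomerase compact the chromosomes, and kinetochores attach them to the spindle. The anaphase-promoting complex then ends mitosis by marking cyclin B and securin for destruction. Most of these genes are transcribed in a burst late in the cell cycle, under the MuvB complexes with B-MYB and FOXM1, and are held silent by the DREAM complex in cells that have left the cycle. In the embryonic cortex their RNA therefore marks the cycling radial glia and intermediate progenitors among a majority of postmitotic neurons. In bulk tissue, fewer cycling cells and less RNA per cycling cell cannot be told apart.

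The depth was between 11946658 and 28391046 counts per untreated library and between 12514443 and 26600594 per treated library. The lowest in the 2 experiments were M replicate 2 and WT vehicle replicate 3. The labels were checked against the deleted genes. Among the libraries labelled M, Smarcc1 stood at 95.4%, 49.8% and 52.6% of the C mean in replicates 2, 3 and 4. Among the dcKO vehicle libraries it stood at 51.01%, 91.1%, 50.01% and 51.9% of the WT vehicle mean in replicates 1 to 4. In the dcKO Wnt inhibitor libraries it stood at 80.5%, 94.6%, 52.5% and 65.1%. Smarcc2 was high in the same libraries, at 98.3% in M replicate 2, 94.6% in dcKO vehicle replicate 2, and 88.1% and 95.02% in inhibitor replicates 1 and 2. In inhibitor replicate 4 it stood at 80.1%, with Smarcc1 at 65.1%, and that library was kept, since the limit was 75% for both genes. The library labelled M replicate 2 and these 3 treated libraries are called below the libraries that go against their labels. For inhibitor replicate 1 this holds only in part. Its 80.5% and 88.1% lay below the lowest WT vehicle values, 91.8% for Smarcc1 and 90.8% for Smarcc2. The edgeR results of the 4 comparisons are given with and without these libraries. As markers of the labelled tissue, 9 genes of cortical neurons were summed in CPM (counts scaled to a fixed total per library), with none at 0 in any library. They summed to 7112 to 7830 in C and 7267 to 7674 in WT vehicle. The sums were 6224 to 7553 in M, 6097 to 7404 in dcKO vehicle and 6373 to 7361 in dcKO Wnt inhibitor. Another 7 genes, markers of the ganglionic eminence and interneurons, summed to 524 to 617 CPM in C and 522 to 651 in WT vehicle. They summed to 448 CPM in M replicate 2 and 472 in dcKO vehicle replicate 2, and to 708 to 814 in the other M and dcKO vehicle libraries. In dcKO Wnt inhibitor they summed to 722 to 918, and none was at 0 in any library. Same-numbered libraries of the 2 experiments also deviated together from their group means. Across 15220 genes the correlation was between 0.168 and 0.585 for C and WT vehicle libraries of 1 number and between -0.414 and 0.239 for those of different numbers. For M and dcKO vehicle libraries it was between 0.700 and 0.849 against -0.724 to 0.255. The labels do not say whether the experiments share embryos, so their results are given side by side and not as independent repeats. Nothing in the labels says that the libraries of a group came from separate embryos either, so p-values measure the spread between libraries, which may be technical.

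The levels of the 51 genes were first compared in the control libraries, as library-size-scaled counts (CPM) per kilobase of exon. Cbx5, which encodes the heterochromatin protein HP1 alpha, was the highest at 62.7 CPM per kilobase. Anp32e, a chaperone of the histone variant H2A.Z, followed at 62.2. The spindle protein gene Ckap5, a microtubule polymerase, had 42.3, and Rangap1, which activates the GTPase Ran at the nuclear pore and kinetochore, had 36.3. These genes also serve cells that do not divide. Genes used as proliferation markers were lower per length, with 17.3 for Top2a, 13.9 for Mki67 and 5.33 for Cdk1. The kinetochore gene Ndc80 was the lowest of all 51 at 1.42.

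**Figure D1:**
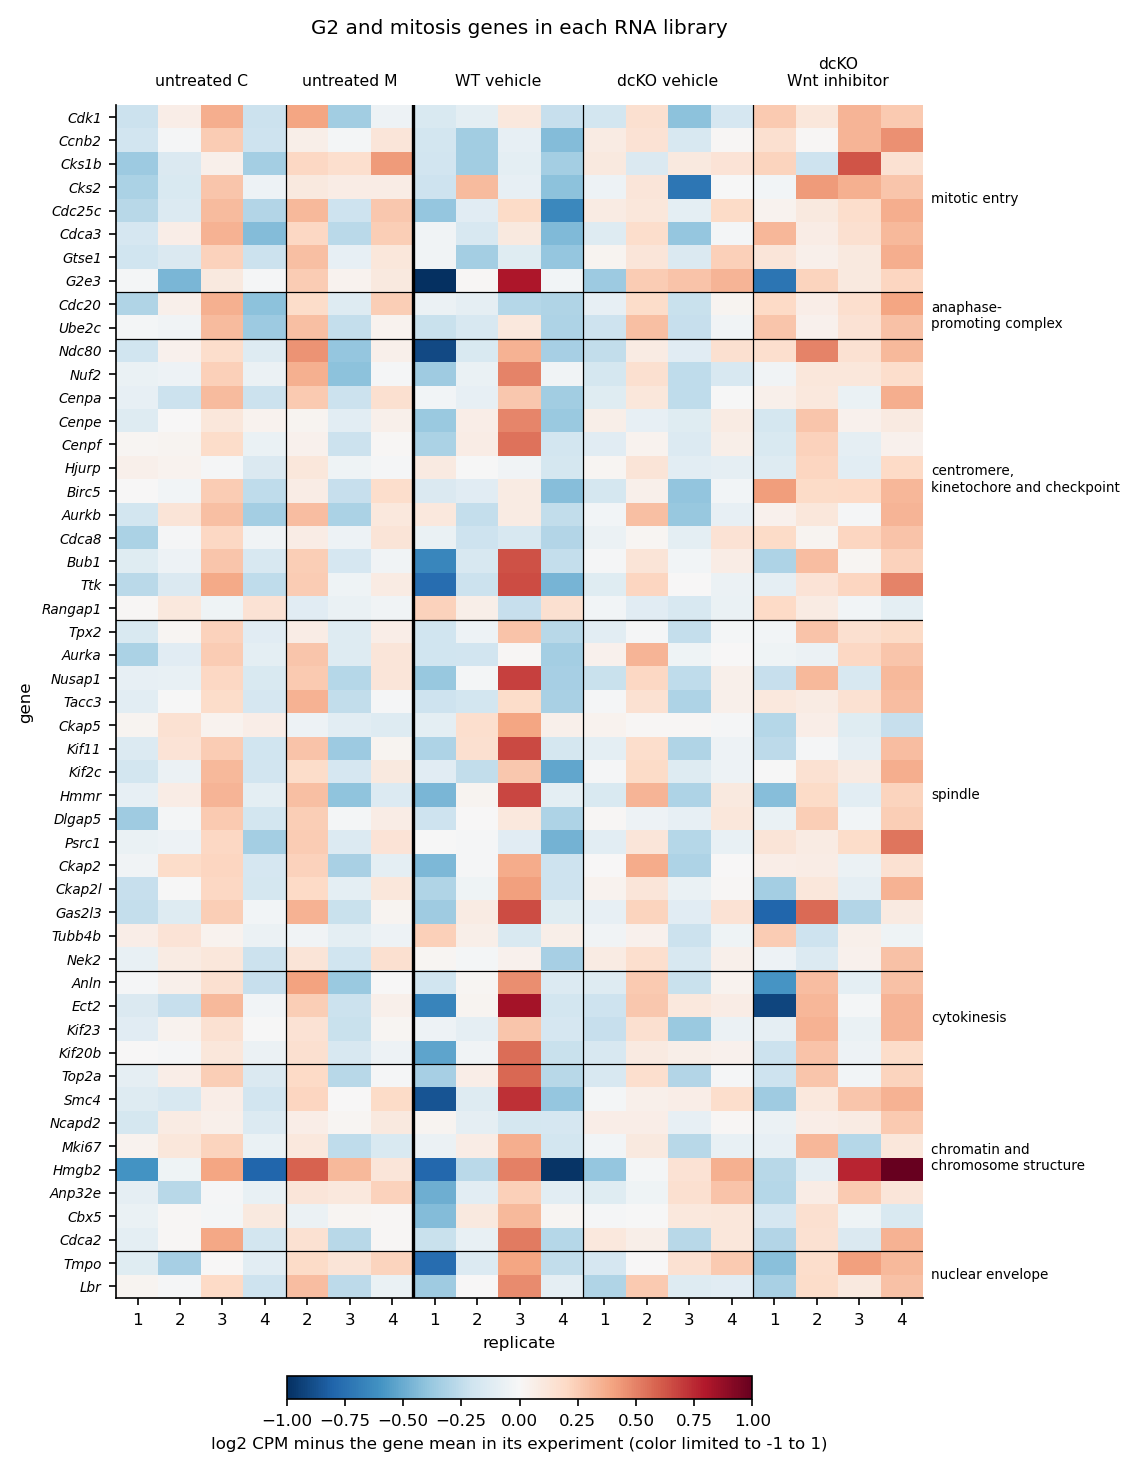
Each row is a gene, ordered by role, and each column an RNA library, with color for the log2 CPM minus the mean of that gene in its experiment, cut at -1 and 1. The columns of C replicate 3, WT vehicle replicate 3 and M replicate 2 are red across most rows, and the inhibitor columns are red for most of the mitotic entry genes.

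Libraries of 1 group differed from each other by more than the group means did. The mean log2 CPM over the 51 genes was 4.83, 4.94, 5.17 and 4.81 in C replicates 1 to 4, and 5.17, 4.82 and 5.03 in M replicates 2 to 4. It was 4.62, 4.84, 5.19 and 4.64 in the WT vehicle libraries, 4.82, 5.03, 4.76 and 4.95 in the dcKO vehicle libraries, and 4.80, 5.05, 4.99 and 5.17 in the dcKO Wnt inhibitor libraries. The means ± SD were 4.94 ± 0.17 (n = 4) for C, 5.01 ± 0.18 (n = 3) for M, 4.82 ± 0.26 (n = 4) for WT vehicle, 4.89 ± 0.12 (n = 4) for dcKO vehicle and 5.003 ± 0.15 (n = 4) for dcKO Wnt inhibitor. All 5 ranges overlap.

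Many of the genes were highest or lowest in the same library of a group. C replicate 3 held the highest C value for 45 of the 51 genes, and WT vehicle replicate 3 the highest WT vehicle value for 41. Of the M libraries, replicate 2 was highest for 38 genes and replicate 3 lowest for 46. Of the dcKO vehicle libraries, replicate 2 was highest for 34 and replicate 3 lowest for 38. Of the inhibitor libraries, replicate 4 was highest for 26 and replicate 1 lowest for 31, but replicate 2 was highest for 17 and lowest for 14. WT vehicle replicate 1 was likewise highest for 9 and lowest for 22. The same counts over all genes were not computed. The libraries that stood highest among M and dcKO vehicle are the same replicates 2 whose Smarcc1 and Smarcc2 were at the control level. M replicate 2 and WT vehicle replicate 3 also had the lowest depth of their experiments. C replicate 3, in contrast, had the highest depth of the untreated libraries. The part of depth in these values was not tested. Within a group, the highest library was a median of 1.35 times the lowest for C, 1.30 for M, 1.63 for WT vehicle, 1.30 for dcKO vehicle and 1.35 for dcKO Wnt inhibitor. The widest range of any gene was 3.81 times, in WT vehicle, for the ubiquitin ligase gene G2e3.

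**Figure D2:**
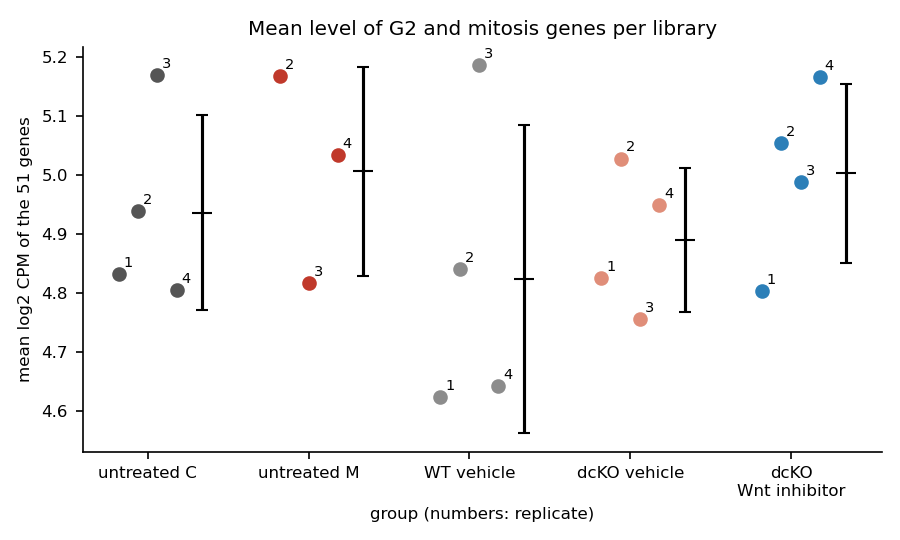
Points are RNA libraries and the vertical axis is the mean log2 CPM over the 51 genes, with the bar at each group's mean and the error bar its SD. The group means lie between 4.82 and 5.01, while WT vehicle libraries alone run from 4.62 to 5.19.

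The first comparison asked whether loss of BAF155 and BAF170 altered these genes in the untreated cortex. None of the 51 genes passed the test between M and C at an adjusted p under 0.05 with edgeR's quasi-likelihood test and Benjamini-Hochberg adjustment, where 0.00634% of 15770 genes did on the higher side and 0% on the lower. At an unadjusted p under 0.05, 4 genes were higher and 1 was lower, against 7.91% and 8.14% of all genes. Without C replicate 3 these counts were 8 and 2, beside 1317 and 1327 of 15561 genes tested. The median log2 difference over the 51 genes was 0.05, beside 0.00 over all genes, and 34 of the 51 values were above 0. DESeq2 called 3 of them higher, Tmpo, Cks1b and Anp32e, at adjusted p of 0.0202, 0.0386 and 0.0442, and none lower, where it called 1.67% of all genes higher and 1.99% lower. DESeq2 was run with all libraries only, here and below.

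The genes with the smallest p in this comparison were named together with fixed examples of each role. Cks1b, on chr3:89415472-89418383 (mm10), encodes a small subunit of cyclin-dependent kinases. It measured 12.02, 13.96, 16.05 and 12.2 CPM in the C libraries and 17.9, 17.4 and 20.8 in the M libraries. Every M library lay above every C library. The log2 difference was 0.46 (SE 0.124), with an adjusted p of 0.149 by edgeR's quasi-likelihood test. Tmpo, on chr10:91147571-91181315, encodes lamina-associated polypeptide 2 of the inner nuclear membrane. It measured 178, 154, 195 and 180 CPM in C and 222, 213 and 227 in M, again without overlap, with a log2 difference of 0.32 (SE 0.077) and an adjusted p of 0.143 in the same edgeR test. Anp32e, on chr3:95929246-95947390, measured 225, 198, 238 and 227 CPM in C and 260, 257 and 281 in M. Its groups did not overlap, and its log2 difference was 0.26 (SE 0.0713, adjusted p = 0.149, edgeR). Ckap5, on chr2:91526762-91620664, went the other way, with 389, 423, 389 and 399 CPM in C and 367, 353 and 349 in M. Its log2 difference was -0.17 (SE 0.0562, adjusted p = 0.211, edgeR). These are the 3 higher and the 1 lower of the 51 genes whose M and C libraries did not overlap, beside 6.96% and 6.21% of all genes. Smc4, a condensin subunit, had a log2 difference of 0.24 with an unadjusted p of 0.014 in edgeR.

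The common markers of proliferation did not separate M from C. Mki67, whose product coats mitotic chromosomes and is the antigen of Ki-67 staining, measured 136, 143, 154 and 126 CPM in C and 143, 111 and 119 in M. Replicates 3 and 4 of M were lower than every C library and replicate 2 was inside their range. Top2a, the topoisomerase that untangles chromosomes before anaphase, measured 143, 160, 181 and 138 CPM in C and 175, 126 and 151 in M. Its log2 difference was -0.05, with a 95% interval of -0.33 to 0.24. Cdk1, the kinase that starts mitosis, measured 22.4, 27.2, 33.3 and 22.3 CPM in C and 34.1, 20.4 and 24.96 in M. The M libraries spanned the whole C range, and the interval of the log2 difference, -0.45 to 0.45, leaves room for a change of that size either way. The intervals of Ccnb2, a B-type cyclin, and Cenpf, an outer kinetochore protein, ran from -0.21 to 0.36 and from -0.28 to 0.09. Those of Tpx2 and Kif11, which build the bipolar spindle, ran from -0.22 to 0.22 and from -0.40 to 0.35.

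Leaving out M replicate 2, the library at the control level of Smarcc1, changed which genes passed. Without it, Cks1b (log2 difference 0.49, adjusted p = 0.0365), Tmpo (0.31, adjusted p = 0.0368) and Anp32e (0.28, adjusted p = 0.0399) rose in edgeR, and Mki67 fell by 0.28 on the log2 scale (adjusted p = 0.0431). The background rose as well, to 5.57% of all genes called higher and 6.88% called lower. The median over the 51 genes was then -0.03. Among the lower genes without overlap, Hmmr, a spindle and hyaluronan-binding protein gene, and Mki67 joined Ckap5, beside 18.4% of all genes, while the 3 higher genes stood beside 18.9%. Markers of the ganglionic eminence and interneurons also lay apart in these libraries, at 777 and 708 CPM in M replicates 3 and 4 against 524 to 617 in C. Cortical neuron markers were lower, at 6224 and 6440 CPM against 7112 to 7830 in C. The 4 endothelial markers were lower too, at 124 and 116 CPM against 128 to 153. The part of these cells in the result was not tested.

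**Figure D3:**
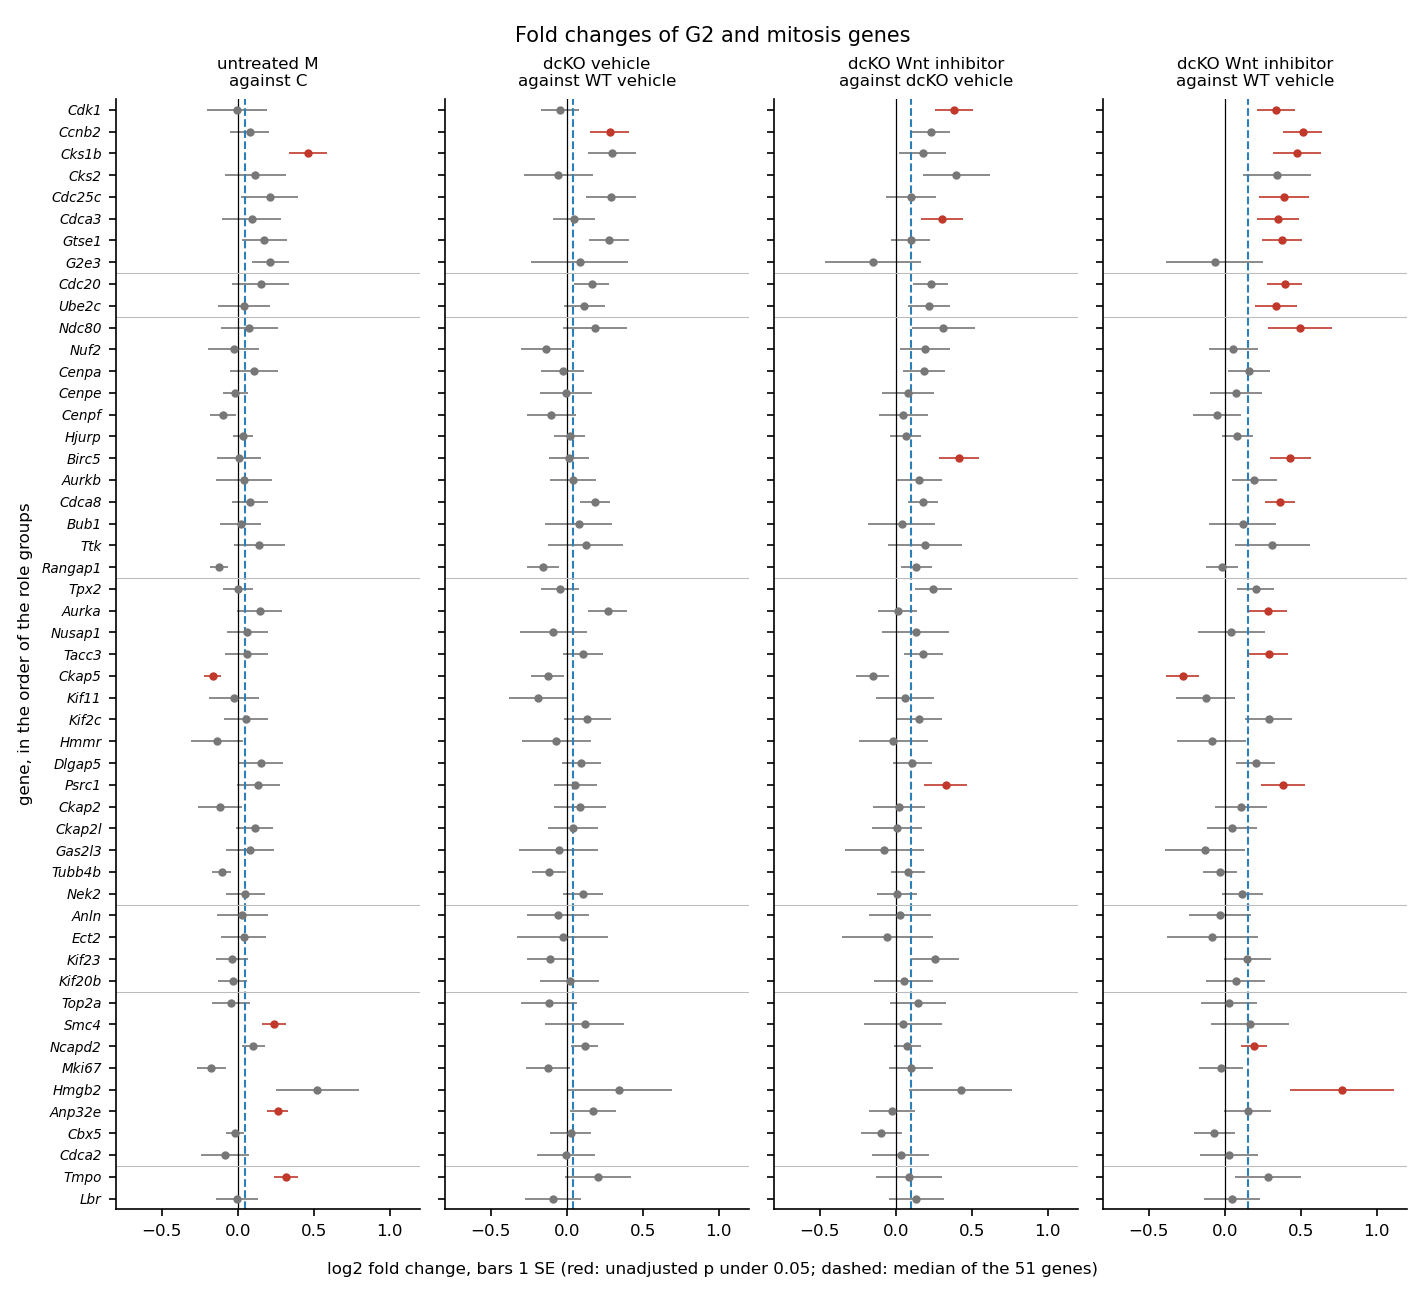
Each row is 1 of the 51 genes, grouped by role, and each panel a comparison, with points at the log2 difference on the horizontal axis, bars of 1 SE, red for an unadjusted p under 0.05 and a dashed line at the median. No point passed an adjusted p of 0.05 in edgeR, and the median is farthest to the right, at 0.15, for dcKO Wnt inhibitor against WT vehicle.

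The second comparison set dcKO vehicle against WT vehicle. None of the 51 genes passed the edgeR test at an adjusted p under 0.05, where 0.00611% of 16372 genes passed as higher and 0% as lower, and DESeq2 called none either, beside 0.519% of all genes called higher and 0.214% called lower. Ccnb2 was the 1 gene with an unadjusted p under 0.05, beside 4.14% of all genes on the higher side, and none was lower, beside 5.33%. Without WT vehicle replicate 3 the counts were 11 higher and 1 lower, beside 864 and 1162 of 16591 genes tested. Without any 1 of WT vehicle replicates 2 and 4 or dcKO vehicle replicates 1, 2 and 4 they were 0 and 0. In those fits 463 to 1032 of all genes tested were higher and 448 to 1367 lower. With all libraries, the median log2 difference was 0.04, and 30 of 51 values were above 0, beside 49.3% of all genes. No gene had groups that did not overlap, beside 3.08% of all genes higher and 2.58% lower. Ccnb2 measured 13.3, 11.9, 14.3 and 11.2 CPM in WT vehicle and 16.1, 16.7, 13.6 and 15.3 in dcKO vehicle. Of the dcKO vehicle libraries only replicate 3 fell inside the WT vehicle range. The log2 difference was 0.28, with an adjusted p of 0.510 in edgeR. Mki67 measured 121, 132, 161 and 110 CPM in WT vehicle and 123, 134, 104 and 119 in dcKO vehicle, and the interval of its log2 difference ran from -0.44 to 0.19. Top2a had the interval -0.52 to 0.28 in this comparison, and Cdk1 -0.31 to 0.22.

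Cks1b, the gene with the largest M against C difference among those with an unadjusted p under 0.05, measured 12.9, 11.6, 13.8 and 11.7 CPM in WT vehicle and 15.9, 13.4, 15.9 and 16.3 in dcKO vehicle. Only dcKO vehicle replicate 2, whose Smarcc1 was at 91.1% of the WT vehicle mean, lay within the WT vehicle range. Without the 3 treated libraries that go against their label, Cks1b was the 1 gene of the 51 whose groups did not overlap, with a log2 difference of 0.36 and an unadjusted p of 0.021 in edgeR, beside 9.17% of all genes without overlap on the higher side and 9.28% on the lower. None of the 51 was called without those libraries, while 2.47% of all genes were called higher and 3.34% lower. The ganglionic eminence and interneuron markers, at 750 to 814 CPM in the 3 remaining dcKO vehicle libraries against 522 to 651 in WT vehicle, did not overlap either. Cortical neuron markers were lower there without overlap, at 6097 to 6467 CPM against 7267 to 7674. The part of these cells was not tested.

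The difference of the genotype effect between the experiments was tested directly, as the M to C difference minus the dcKO vehicle to WT vehicle difference. None of the 51 genes passed in edgeR, none had an unadjusted p under 0.05, and 0% of 16156 genes passed. At an unadjusted p under 0.05, 0.248% and 0.254% of all genes lay on the 2 sides. The median over the 51 genes was 0.01, and 27 of the 51 values were above 0, beside 49.4% of all genes. Without M replicate 2 the median was -0.05 and 13 of the 51 values were above 0, beside 50.5% of all genes. None of the 51 genes passed then either, beside 0% of all genes. Same-numbered libraries of the experiments moved together, as given above, and this fit treated them as independent.

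The third comparison asked what the Wnt inhibitor altered in dcKO cortex. None of the 51 genes passed the edgeR test between dcKO Wnt inhibitor and dcKO vehicle, where 0.0428% of 16372 genes were called higher and 0.0122% lower, and DESeq2 called none, beside 1.06% of all genes called higher and 1.01% called lower. Of the 51 values 44 were above 0, beside 51.8% of all genes, and the median log2 difference was 0.10 beside 0.01 over all genes. The count above 0 was 35 without inhibitor replicate 4, 37 without inhibitor replicate 2 and 38 without dcKO vehicle replicate 3. It was 48 without inhibitor replicate 1. Many of the genes were high or low in the same libraries, as given above, so their signs are not independent. At an unadjusted p under 0.05, 4 were higher and none lower, beside 7.85% and 8% of all genes. The count of higher genes was 2 without any 1 of dcKO vehicle replicates 1, 3 and 4 or inhibitor replicate 4. Over all genes these fits gave 838 of 16478, 842 of 16487, 836 of 16494 and 1244 of 16502. The count was 7 without dcKO vehicle replicate 2, beside 1699 of 16526, and 7 without inhibitor replicate 2, beside 1804 of 16621. With all libraries, the 4 higher genes were Birc5, Cdk1, Psrc1 and Cdca3. Birc5 encodes survivin, a subunit of the chromosomal passenger complex with Aurora B. It measured 13.03, 15.3, 11.2 and 14.5 CPM in dcKO vehicle and 19.7, 16.9, 16.96 and 18.6 in dcKO Wnt inhibitor. All 4 inhibitor libraries lay above all 4 vehicle libraries, which no other of the 51 genes showed, beside 4.48% of all genes. No gene of the 51 was lower without overlap, beside 4.03%. The log2 difference was 0.42, with an unadjusted p of 0.00767 and an adjusted p of 0.2012 in edgeR. Cdk1 measured 22.2, 28.2, 19.1 and 22.5 CPM in dcKO vehicle and 30.3, 27.4, 32.0 and 30.3 in dcKO Wnt inhibitor. Vehicle replicate 2 alone reached into the inhibitor range, and the log2 difference was 0.38 with an adjusted p of 0.203 in edgeR.

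Psrc1, whose product binds spindle microtubules, measured 14.6, 17.1, 12.9 and 14.9 CPM in dcKO vehicle and 17.2, 16.6, 17.9 and 22.8 in dcKO Wnt inhibitor. Cdca3, a trigger of mitotic entry, measured 25.3, 31.4, 21.3 and 27.5 CPM in dcKO vehicle and 35.0, 29.2, 31.1 and 34.8 in dcKO Wnt inhibitor. In both genes dcKO vehicle replicate 2 was the vehicle library inside the inhibitor range. Without the 3 libraries that go against their label, 2 inhibitor libraries remained against 3 vehicle libraries. The median log2 difference was then 0.24, 22 of the 51 genes were higher without overlap and 2 were lower, beside 24.7% and 23% of all genes, and none was called in edgeR, beside 0.303% of all genes called higher and 0.72% called lower. Without inhibitor replicate 2 alone, edgeR called none, beside 0.86% of all genes called higher and 1.67% called lower. Marker sums of other cells differed between these groups as well. The 5 erythroid markers summed to 201 to 229 CPM in dcKO vehicle and 238 to 291 in dcKO Wnt inhibitor, without overlap, and the 9 markers of cortical progenitors to 1389 to 1617 and 1534 to 1873. Choroid plexus markers summed to at most 6.88 CPM in dcKO vehicle and to up to 846 in dcKO Wnt inhibitor, and the part of these cells in the result was not tested. Mki67, at 119, 158, 103 and 135 CPM in dcKO Wnt inhibitor, had a log2 difference from dcKO vehicle of 0.10, with an interval of -0.21 to 0.41.

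The fourth comparison set dcKO Wnt inhibitor against WT vehicle, so that genotype and inhibitor differ together and cannot be told apart. None of the 51 genes passed in edgeR, where the shares of the 16372 genes tested were 0.0611% for higher and 0.0366% for lower calls. With no adjustment, 16 of the 51 were higher at a p under 0.05, beside 9.53% of all genes, and 1 was lower, beside 10.2%. The count of 16 changed when single libraries were left out. It was 6 without WT vehicle replicate 4, 7 without inhibitor replicate 4 and 9 without WT vehicle replicate 2. Over all genes these fits gave 1051 of 16514, 1280 of 16502 and 1104 of 16626. The count was 10 without WT vehicle replicate 1, beside 2131 of 16631, and 21 without WT vehicle replicate 3, beside 1654 of 16591. It was also 10 when only the 2 groups were fitted, beside 1131 of 15887. With all libraries, the median log2 difference was 0.15, beside 0.01 over all genes. Of the 51 values 39 were above 0, beside 50.8% of all genes. DESeq2 called 4 genes higher, Ccnb2, Cdca8, Cdc20 and Birc5, at adjusted p of 0.00895, 0.0135, 0.0324 and 0.0439, and none lower, beside 1.95% of all genes called higher and 2.83% lower. In 7 genes every inhibitor library lay above every WT vehicle library, namely Birc5, Ccnb2, Cdc20, Cdca8, Cdk1, Gtse1 and Psrc1, beside 3.48% of all genes. None was lower without overlap, beside 4.02%. The comparison shares the WT vehicle libraries with the second comparison and the inhibitor libraries with the third.

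By role, mitotic entry and anaphase-promoting complex genes made up 8 of these 16. Of the 8 mitotic entry genes 6 were higher at an unadjusted p under 0.05, with a median log2 difference of 0.37, and both anaphase-promoting complex genes were. The count was 3 of 12 for centromere, kinetochore and checkpoint genes, 3 of 15 for spindle genes and 2 of 8 for chromatin and chromosome structure genes. It was 0 of 4 for cytokinesis genes and 0 of 2 for nuclear envelope genes. All these counts stand beside 9.53% of all genes, and they are parts of the 16, which changed when single libraries were left out. The roles also differ in exon length. It was 692 to 7886 bases for mitotic entry genes, 1868 and 2600 for Cdc20 and Ube2c, and 5386 to 9063 for cytokinesis genes. Role and length were not told apart. Ccnb2 measured 16.98, 15.3, 19.2 and 20.8 CPM in dcKO Wnt inhibitor, beside 11.2 to 14.3 in WT vehicle. Its log2 difference was 0.51 (SE 0.128), with an adjusted p of 0.0856 in edgeR. Cdc20, which activates the anaphase-promoting complex, measured 21.8, 21.3, 18.6 and 18.4 CPM in WT vehicle and 26.1, 23.8, 25.5 and 29.9 in dcKO Wnt inhibitor, without overlap. Its log2 difference was 0.39 (adjusted p = 0.117, edgeR). Ube2c, the ubiquitin-conjugating enzyme of the same complex, measured 17.2, 18.01, 21.6 and 16.3 CPM in WT vehicle and 24.4, 20.7, 22.3 and 24.6 in dcKO Wnt inhibitor. Only WT vehicle replicate 3 reached above an inhibitor library.

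Cdca8, which encodes borealin of the chromosomal passenger complex, measured 24.4, 22.2, 22.8 and 20.8 CPM in WT vehicle and 29.1, 26.1, 29.6 and 31.1 in dcKO Wnt inhibitor. The groups did not overlap, and the log2 difference was 0.36 (adjusted p = 0.101, edgeR). Its partner Birc5 had 13.3, 13.7, 15.6 and 11.002 CPM in WT vehicle, all below its inhibitor libraries, and a log2 difference of 0.43 (adjusted p = 0.129, edgeR). Aurkb, the kinase of that complex, measured 20.4, 16.02, 20.1 and 15.96 CPM in WT vehicle and 19.5, 20.4, 18.8 and 23.99 in dcKO Wnt inhibitor. Its groups overlapped, and the interval of its log2 difference ran from -0.13 to 0.52. Hmgb2, a chromatin protein gene of dividing cells, had the largest log2 difference of the 51, 0.77, and the widest interval, 0.03 to 1.51. It measured 3.68, 5.27, 9.01 and 3.22 CPM in WT vehicle and 5.26, 5.97, 10.8 and 13.2 in dcKO Wnt inhibitor, so that its groups overlapped. Cks2, the paralog of Cks1b, measured 1.74, 2.51, 1.90 and 1.51 CPM in WT vehicle and 1.97, 2.70, 2.58 and 2.43 in dcKO Wnt inhibitor, with an interval of -0.14 to 0.83.

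Several of the longest genes of the list were not among the 16. Ckap5 was the 1 gene lower at an unadjusted p under 0.05, with 305, 366, 428 and 338 CPM in WT vehicle and 268, 342, 299 and 277 in dcKO Wnt inhibitor. Its log2 difference was -0.28 (adjusted p = 0.197, edgeR). Mki67 and Top2a had intervals of -0.33 to 0.29 and -0.37 to 0.43, and Kif11 and Cenpf had log2 differences of -0.13 and -0.05. The exons of the 16 genes that were higher at an unadjusted p under 0.05 summed to a median of 3183.5 bases, against 5573 for the 34 genes with larger p and 9462 for Ckap5. Long genes as a whole, over short genes, were shifted in some of these libraries. Their median log2 difference was -0.49 in inhibitor replicate 1, -0.28 in replicate 3, -0.13 in replicate 4 and 0.13 in replicate 2, and it was between -0.11 and 0.25 in WT vehicle. With this difference as a covariate, chosen after seeing the data, edgeR called none of the 51 genes, beside 0.0122% of all genes called higher and 0% lower, and the median over them was 0.33.

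**Figure D4:**
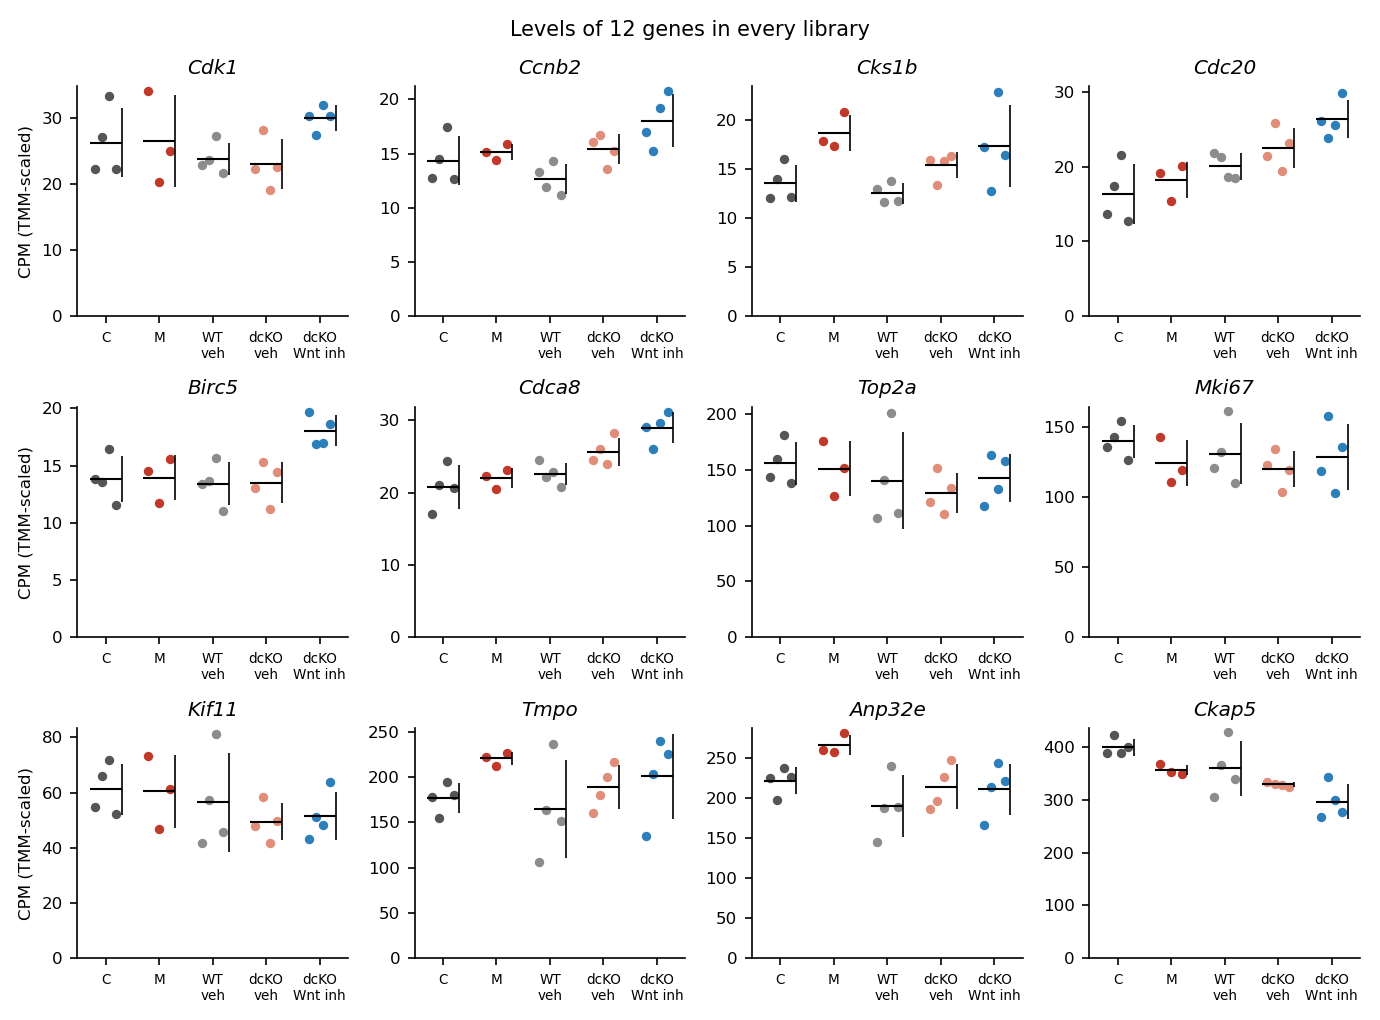
Each panel is a gene, with its CPM in every library as points, the group mean as a bar and the SD as the error bar. In Ccnb2, Cdc20, Birc5, Cdca8 and Cdk1 all inhibitor points lie above all WT vehicle points, while in Mki67, Top2a and Kif11 the 5 groups overlap.

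Libraries that go against their label also bore on this comparison. Without inhibitor replicate 2, edgeR called 4 of the 51 genes higher, Ccnb2 (log2 difference 0.58, adjusted p = 0.0201), Cks1b (0.59, adjusted p = 0.0253), Cdca8 (0.41, adjusted p = 0.0283) and Cdc20 (0.44, adjusted p = 0.0458), and none lower, beside 3.39% and 5.35% of all genes. Without all 3 such libraries it called 3, Ccnb2 (0.66, adjusted p = 0.0181), Cks1b (0.65, adjusted p = 0.0266) and Cdca8 (0.43, adjusted p = 0.0498), and none lower, beside 2.66% and 4.72% of all genes, and the median over the 51 genes was 0.21. Markers of other cells moved with the inhibitor group. Scaled by total counts alone, 9 markers of cortical progenitors summed to 1401, 1421, 1530 and 1410 CPM in WT vehicle. They summed to 1784, 1534, 1873 and 1754 in dcKO Wnt inhibitor. The groups did not overlap, but the nearest values were 1530 and 1534. By that scaling the median log2 difference over all genes was 0.06, against 0.01 in the main fit. Whether the gap holds under the main scaling was not tested. Of the 9 markers, 3 were higher and none lower at an unadjusted p under 0.05 in edgeR, beside 9.53% and 10.2% of all genes. Markers of the ganglionic eminence and interneurons summed to 522 to 651 CPM in WT vehicle and 722 to 918 in dcKO Wnt inhibitor, and 5 erythroid markers to 127 to 229 and 238 to 291. Choroid plexus markers, of which 1 of 4 was at 0 in inhibitor replicate 4 and WT vehicle replicate 3, summed to 846, 148, 460 and 5 CPM in the inhibitor libraries and 5, 12, 4 and 114 in WT vehicle. Their part in the result was not tested.

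Genes of the same process outside the list were measured as well. Of 45 other mitosis genes, such as those of cyclin B1, Polo-like kinase and condensin subunits, none was called by edgeR in any of the 4 comparisons. At an unadjusted p under 0.05, none differed between M and C or between dcKO vehicle and WT vehicle, 5 were higher in dcKO Wnt inhibitor than in dcKO vehicle, beside 7.85% of all genes, and 4 were higher than in WT vehicle, beside 9.53%. Their medians in the same order were 0.03, 0.00, 0.17 and 0.20. Among the 5 and the 4 was Ska1, of the complex that tracks microtubule ends at kinetochores, with log2 differences of 0.48 from dcKO vehicle and 0.51 from WT vehicle.

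Of 27 regulators of the G2/M genes, none was called by edgeR in these comparisons, beside the same shares of all genes. E2f1 and E2f2, activators of cell cycle genes, had log2 differences of 0.42 (adjusted p = 0.0824) and 0.76 (adjusted p = 0.0569) between dcKO Wnt inhibitor and WT vehicle, and 0.37 and 0.49 between dcKO vehicle and WT vehicle, with adjusted p of 0.281 and 0.295 in edgeR. E2f6 had 0.30 and 0.31 in these 2 comparisons, with adjusted p of 0.145 and 0.325 in edgeR. Rbl2, the p130 pocket protein of the DREAM complex, had -0.28 between dcKO vehicle and WT vehicle and -0.21 between M and C. Its relative Rbl1, the p107 protein, had 0.39 between M and C, and Trp53 had 0.30, both with an unadjusted p under 0.05 and not called.

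The promoters of the 51 genes are shown because the DREAM and MuvB complexes read a short element near the start site, the cell cycle genes homology region (CHR), and the factor NF-Y reads a CCAAT box upstream of it. The letters searched were TTTGAA and TTCGAA for the CHR and CCAAT for the box, on both strands, from 250 bases before to 50 bases after the start in the RefSeq table (GRCm38.p6). Of the 51 genes 45 had an entry. The missing ones were Aurkb, Cdc25c, Cdca2, Dlgap5, Smc4 and Tpx2. A gene was counted if any of its promoter entries held a match. A CHR match lay in 35 of the 45 (77.8%), against 21.7% of 27025 genes, and within 50 bases of the start in 64.4% against 6.12%. A CCAAT match lay in 77.8% against 41.1%, and both in the same promoter entry in 64.4% against 8.61%. The 120 bases just before the RefSeq start are given for 6 genes, with the CHR and CCAAT letters, read on either strand, in capitals.
Cdk1: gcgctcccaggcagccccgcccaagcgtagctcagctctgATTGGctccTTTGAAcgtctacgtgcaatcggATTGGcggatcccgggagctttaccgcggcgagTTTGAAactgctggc
Cdc20: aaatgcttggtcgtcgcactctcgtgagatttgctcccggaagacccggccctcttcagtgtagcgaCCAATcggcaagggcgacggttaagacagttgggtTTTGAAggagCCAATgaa
Top2a: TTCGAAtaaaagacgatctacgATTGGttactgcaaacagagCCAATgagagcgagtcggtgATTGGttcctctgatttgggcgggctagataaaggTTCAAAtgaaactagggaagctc
Ccnb2: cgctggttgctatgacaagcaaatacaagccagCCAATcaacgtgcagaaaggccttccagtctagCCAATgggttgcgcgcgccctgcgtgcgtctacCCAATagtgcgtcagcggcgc
Tmpo: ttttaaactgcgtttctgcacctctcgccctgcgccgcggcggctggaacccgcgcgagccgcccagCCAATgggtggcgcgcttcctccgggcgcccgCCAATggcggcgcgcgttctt
Anp32e: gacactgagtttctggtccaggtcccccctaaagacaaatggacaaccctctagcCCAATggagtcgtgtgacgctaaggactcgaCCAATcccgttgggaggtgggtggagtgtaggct
These windows lie at chr10:69352913-69353032 (minus strand) for Cdk1, chr4:118437344-118437463 (minus) for Cdc20, chr11:99024190-99024309 (minus) for Top2a, chr9:70421555-70421674 (minus) for Ccnb2, chr10:91171620-91171739 (minus) for Tmpo and chr3:95929137-95929256 (plus) for Anp32e. The last 26 bases for Cdk1, 9 for Cdc20 and 11 for Anp32e fall in an exon of the GENCODE annotation, and the Tmpo window lies inside the gene as GENCODE draws it. Cdk1, Cdc20 and Top2a each hold a CHR match 15 to 23 bases before the start. CCAAT boxes lie farther upstream in all of them, and Cdc20 holds another between its CHR and the start. Ccnb2, Tmpo and Anp32e hold CCAAT boxes and no CHR letters in these 120 bases, though all 3 have a CHR match elsewhere in the table. That of Ccnb2 nearest the start lies just after it, that of Tmpo lies near the start of a second promoter entry, and that of Anp32e lies farther upstream. A match describes the letters only, and whether a factor binds there was not measured.

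H3K27me3 was compared at the same start sites, as deposited peaks within 2000 bp. Of the 51 genes, 1, 0, 0 and 1 had a peak in C replicates 1 to 4 and 1, 0, 1 and 6 in K replicates 1 to 4. Over 21951 protein-coding genes the shares were 19.2%, 16.2%, 5.99% and 13.4% in the C libraries and 17.8%, 4.91%, 13.8% and 32.7% in the K libraries. The sequenced tags kept after filtering numbered 2806857, 17731247, 2420911 and 28335352 in C replicates 1 to 4. In K replicates 1 to 4 they numbered 3969109, 3386488, 25035817 and 8898443. Their part in the peak counts was not tested. A total of 45 of the 51 genes had no peak in any library. The 6 genes of K replicate 4, which had the most peaks of any library at 46000, were Gas2l3, Hjurp, Hmgb2, Kif23, Mki67 and Smc4. Of these, Mki67 also had a peak in C replicate 1, Kif23 in K replicate 1, and Hjurp, the chaperone that loads CENP-A at centromeres, in C replicate 4 and K replicate 3. No gene had a peak in every K library, and no cause of the higher count in K replicate 4 was tested.

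**Figure D5:**
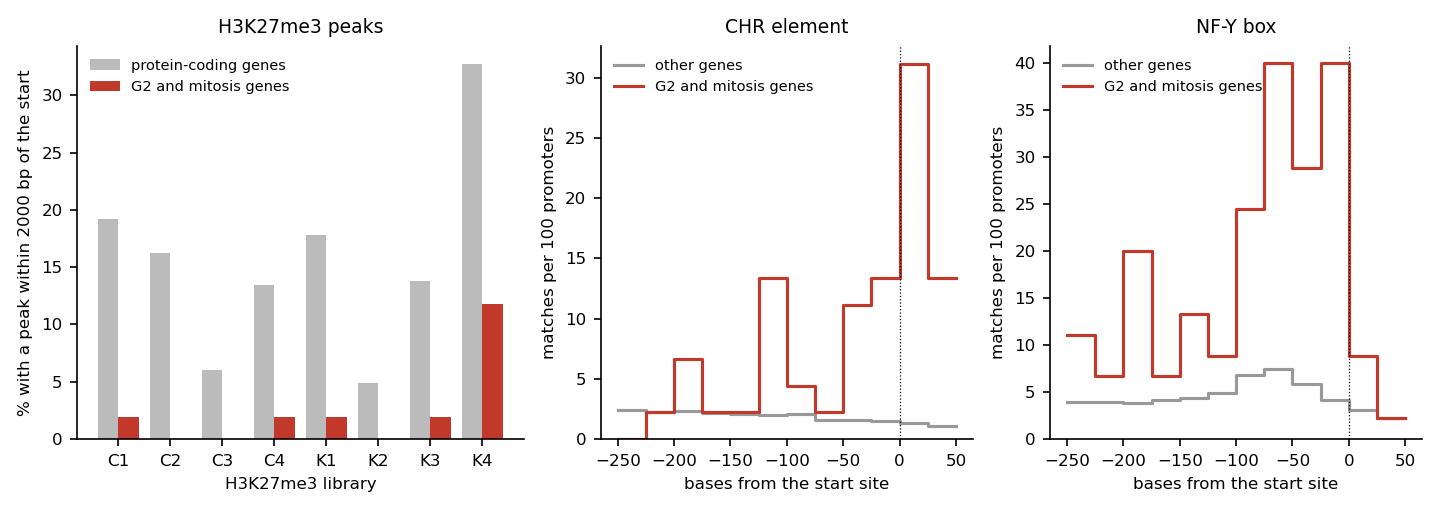
The left panel gives, for each H3K27me3 library, the percent of protein-coding genes (gray) and of the 51 genes (red) with a peak within 2000 bp of the start, and the other panels give CHR and CCAAT (NF-Y box) matches per 100 promoters by distance from the start in bins of 25 bases. The red bars stay below the gray ones in all 8 libraries, and the red lines peak near the start.

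Several of the 51 genes share sequence with other genes, and their counts may be split with them. The share of 50-base stretches of the transcripts that also occur in other genes was 41.3% for Tubb4b, 29.7% for Cks2, 18.7% for Hmgb2, 16% for Ube2c, 11.9% for Cdc25c, 10.6% for Cdc20 and 5.52% for Cks1b. Values of these genes are uncertain to that extent.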

How the data were processed

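Reads had been mapped to mm10 with STAR and counted per gene with featureCounts by the authors, who deposited raw counts per Ensembl gene. The handling of reads with several matches and the annotation are not given in the sources used here. The authors also deposited broad H3K27me3 peaks from MACS2, with a fold enrichment and a −log10 q-value for each peak, called per library at a q-value under 0.1.

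Counts were analysed with edgeR 4.0.16 in R 4.3.3 (TMM scaling, filterByExpr, robust quasi-likelihood test, Benjamini-Hochberg adjustment over all genes tested). The 7 untreated and the 12 treated libraries were fitted separately, and all 19 together for the difference between experiments. CPM of single genes used the TMM library sizes, and log2 CPM a prior count of 2. Marker sums used CPM scaled by total counts alone. DESeq2 1.42.0 was the alternative test. The fits were tested on simulated data. Symbols came from GENCODE, matched for 36602 of 38355 and 48349 of 48709 identifiers. Peaks were matched to start sites within 2000 bp.

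The 51 genes and all gene lists were chosen with earlier results of these data known, so counts and medians are given without a test over the list. Named genes were 14 role examples, up to 6 genes with the smallest p per comparison, and genes lower at an unadjusted p under 0.05. Genes named for a missing overlap or for alternatives were chosen after their values were seen. Groups came from titles and treatment labels. Alternatives were other scaling, no filter, a replicate block, leaving out each library and, chosen after seeing the data, leaving out treated dcKO libraries with Smarcc1 and Smarcc2 above 75% of the WT vehicle mean and the long gene covariate.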

Additional observations from a re-analysis of the deposited data

Results flagged for a closer look

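In groups of 4 libraries, 126 sets of values were examined for a library far from the others, and 4 were found. Chance gives about 1 in 20. Cks1b stood at 13.4 CPM in dcKO vehicle replicate 2, below the nearest library at 15.9, and this is the library whose Smarcc1 and Smarcc2 were at the WT vehicle level. G2e3 stood at 72.4 CPM in dcKO vehicle replicate 1, below the nearest at 111. Gtse1, which encodes a microtubule-binding regulator of p53 in G2, stood at 12.3 CPM in untreated C replicate 3, above the nearest at 9.53. H3K27me3 peaks near the start sites were found for 6 of the 51 genes in K replicate 4, where the nearest K library had 1.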

How the results depend on the processing

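Of the counts of called genes, 5 moved by over 1.5 times from 0 of 51. Between M and C, DESeq2 called 3 and edgeR without M replicate 2 called 4. Between dcKO Wnt inhibitor and WT vehicle, DESeq2 called 4 and edgeR without inhibitor replicate 2 called 4. Without the treated dcKO libraries with both Smarcc1 and Smarcc2 above 75% of the WT vehicle mean, edgeR called 3. The median log2 difference, leaving out each library in turn, ran from -0.03 to 0.15 between M and C, -0.04 to 0.17 between dcKO vehicle and WT vehicle, 0.06 to 0.18 between dcKO Wnt inhibitor and dcKO vehicle, and 0.07 to 0.28 between dcKO Wnt inhibitor and WT vehicle, with 0 to 4, 0, 0 and 0 to 4 genes called. It was negative without M replicate 2 (-0.03) or C replicate 4 (-0.0031) in the first, and without WT vehicle replicate 1 (-0.04) or 4 (-0.02) or dcKO vehicle replicate 2 (-0.02) in the second. With long against short genes as a covariate, the medians were -0.07, 0.07, 0.28 and 0.33 in that order, and 21 of the 51 genes changed sign between M and C. DESeq2's size factors, total counts alone and no filter on low counts left 0 genes called by edgeR in all 4 comparisons.

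Not every pair of same-numbered libraries deviated together. Their mean correlation was -0.137 in the untreated and 0.093 in the treated experiment. WT vehicle replicate 1 had 0.382 with dcKO vehicle replicate 1 and 0.403 with inhibitor replicate 1, the highest of the treated pairs, but others went down to -0.176, so the numbers were not taken as pairs. Fits that held the replicate block called 0 genes in all 4 comparisons, with medians of 0.01, 0.05, 0.10 and 0.16. The precision is limited by the libraries per group, with a median SE of 0.140 on the log2 scale between M and C and 0.154 between dcKO Wnt inhibitor and WT vehicle, and intervals cover the spread between these libraries only.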
